A study of Rattus norvegicus with 6 samples.

Results

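The nuclear genes that encode subunits of the respiratory chain and of ATP synthase were examined in the renal cortex of rats. Members were taken by RefSeq rat symbol: every gene beginning with Ndufa, Ndufb, Ndufc, Ndufs, Ndufv, Uqcr or Atp5, together with Sdha to Sdhd, Cyc1 and the Cox4 to Cox8 subunits. A gene also needed a non-control probe carrying one of its RefSeq accessions. No expression value entered this rule, but the rule itself was chosen with earlier results of these data known. This gave 82 of the 15645 genes with a named probe, and 81 of the 82 were tested. Cox8c, the testis form of a small complex IV subunit, was well above background on 1 control array and on 0 treated arrays and was not tested. Another 38 genes with these symbols had no named probe on the array, among them Cyc1, Cox7a1, Cox7b2 and Ndufa4l2, and were not analysed here. The letters Ndufa also take in the Ndufaf genes, which encode assembly factors, and Ndufa4, whose protein is now placed in complex IV.

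The animals were male Sprague-Dawley rats, bought at 5 weeks of age. The 3 controls received corn oil for 4 weeks, and the 3 treated rats received 4-hydroxy-m-phenylenediammonium dichloride at 100 mg/kg/day for the same 4 weeks. One-colour Agilent arrays measured total RNA, 1 array per rat, and the submitters call the animals of a group biological replicates. Levels are log2 of the signal after division by the array's own 75th percentile, so a level of 1 lies 1 doubling above that percentile. Levels of different probes cannot be set against each other.

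The respiratory chain moves electrons from NADH through complex I, or from succinate through complex II, to ubiquinone, and on through complex III and cytochrome c to oxygen at complex IV. Complexes I, III and IV pump protons across the inner mitochondrial membrane, and ATP synthase uses the gradient to make ATP. The proximal tubule fills much of the renal cortex, is rich in mitochondria and depends on oxidative phosphorylation for reabsorption. The subunits encoded by mitochondrial DNA are not among the genes described here.

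The array signal at the 75th percentile was 837 to 976 on control arrays and 930 to 1001 on treated arrays, and 63.1% to 67.7% and 68.9% to 69.6% of probes, in that order, were well above background. The controls were hybridised together on slide 1 and the treated rats on slide 2, and for every difference below the effects of slide and of treatment cannot be told apart. The proximal tubule list was well measured, with all 10 markers tested. Its summed log2 level was 10.81 to 10.93 in controls and 10.75 to 10.80 in treated rats, without overlap. The treated mean was lower for 9 of the 10 markers, against 56.5% of all genes tested. That share over all genes was higher for brighter probes. It was 67.1% at levels of 2 to 4, 72.9% at 4 to 6, 74.2% at 6 to 8 and 90.7% at 8 or more. Anpep, a brush border peptidase, and Aqp1, a water channel, fell (log2 fold changes -0.65 and -0.58, limma adjusted p = 0.0304 and 0.034). The other 8 markers did not pass the test, and the median log2 fold change of the 10 was -0.064. The part of these markers in the members' values was not tested. In whole cortex, fewer cells of a type and less RNA per cell cannot be told apart.

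Most subunit genes lay close to their control level. Of the 81 members tested, 3 rose, 1 fell and 77 did not pass the test (limma, Benjamini-Hochberg adjustment over 12130 genes, threshold 0.05). Among all genes tested, 3.05% were called higher, 1.33% lower and 4.38% in either direction, and the members' counts are close to those shares. The log2 fold change lay within 0.25 of 0 for 73 members, and its 95% interval lay within 0.5 of 0 for 74 members. Among all 12130 genes tested, these counts were 8670 and 7607. All 3 that rose were complex IV genes, Cox7c, Cox4i2 and Cox6b2, and the 1 that fell was the complex I core gene Ndufv2. Before adjustment, 7 higher and 9 lower members had p under 0.05. Over all genes, 11.8% and 13.2% reached that level, 25.0% in either direction.

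With the main scaling, small differences ran more often downwards. The treated mean was lower for 57 of the 81 members, 70.4%, against 56.5% of all genes tested, and the median log2 fold change was -0.064 against -0.030. That lead depends on the scaling: 42 members had a lower treated mean with quantile scaling, 47 with normexp background and 65 with median scaling, and the members' median was -0.011 with quantile scaling. On the main scale the median difference of 10 spike-in control probes, treated minus control, was -0.15, further below 0 than the members' median. The part of this offset in the members' values was not tested. No overlap between the groups was seen for 8 members on the higher side and 27 on the lower side. Among all genes, 14.1% lay wholly higher and 18.7% wholly lower, 32.8% together.

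**Figure D1:**
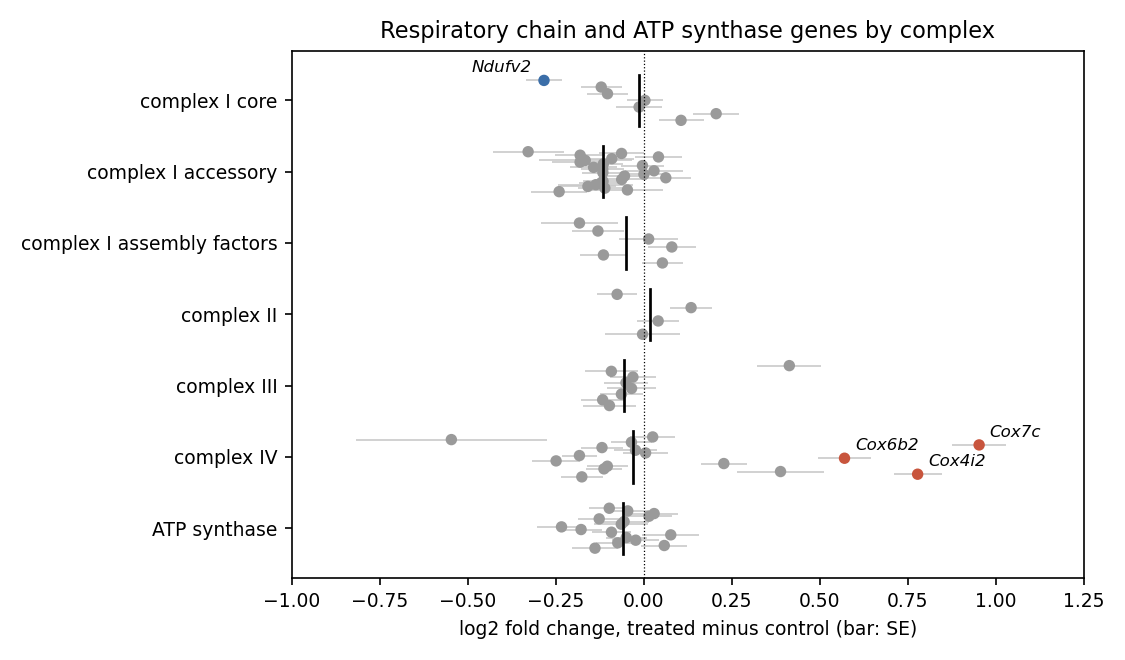
Log2 fold change, treated minus control, of each of the 81 tested members, arranged by complex, with the SE as a thin bar, the median of each complex as a vertical line and the called members coloured. Cox7c, Cox4i2 and Cox6b2 stand above 0.5 while 73 members lie within 0.25 of 0.

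The core of complex I holds the flavin and iron-sulphur centres that carry electrons from NADH, and 1 of its 7 genes tested changed. Ndufv2 encodes the 24 kDa iron-sulphur subunit of the NADH-oxidising arm. Its log2 level was 6.60, 6.58 and 6.56 in controls and 6.29, 6.27 and 6.33 in treated rats. The 3 treated animals lay below every control by a margin wider than the range within either group. Ndufv2 fell by 0.28 on the log2 scale (SE 0.051, n = 3 rats per group, limma adjusted p = 0.0442), which is 1.22-fold lower, and it rests on 1 probe.

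Ndufv1, its neighbour in the NADH-oxidising arm, which binds the flavin and NADH, had a log2 fold change of -0.12 (adjusted p = 0.264). Ndufs1, Ndufs3, Ndufs7 and Ndufs8 ranged from -0.10 to 0.11, and none of them passed the test. The median over the 7 core genes was -0.013, and it was 0.056 with quantile scaling.

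Accessory subunits surround the core and help to stabilise it. None of the 24 accessory genes tested was called, and in limma 3 lower and 0 higher members had an unadjusted p below 0.05. The treated mean was lower for 20 of them, against 56.5% of all genes tested, and 10 lay wholly below the controls, against 18.7%. Among genes of all kinds the wholly lower share was 32.5% at levels of 4 to 6 and 39.9% at 6 to 8. The lower-mean shares there were 72.9% and 74.2%. The median log2 fold change of the accessory genes was -0.12, and -0.025 with quantile scaling. The most negative was Ndufv3, a small subunit of the NADH-oxidising arm, at 6.92, 6.94 and 6.90 in controls and 6.46, 6.51 and 6.80 in treated rats. All treated animals were below all controls, and treated rat 3 was nearest to them (log2 fold change -0.33, SE 0.10, adjusted p = 0.123). The 4 Ndufv3 probes gave values from -0.37 to 0.060. Ndufa1, a membrane-arm subunit needed for assembly, followed at -0.24 (adjusted p = 0.142) with no overlap on either of its probes. Ndufs4, whose loss causes complex I deficiency in humans and mice, was at -0.18 (adjusted p = 0.189). Ndufc2 was singled out after its values were seen, because its probes differ: the main probe gave 0.042 (adjusted p = 0.731), while a dimmer one was -0.46, -0.53 and -0.41 in controls and 1.29, 1.21 and 1.44 in treated rats, a log2 difference of 1.78. Ndufc2 was called higher when a gene's probes were averaged.

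The 6 assembly factors build complex I without remaining in it, and 0 of them was called in limma, with none under an unadjusted p of 0.05. Ndufaf7, a mitochondrial methyltransferase, had a log2 fold change of -0.13 (adjusted p = 0.336). Ndufaf3 was at -0.11 (adjusted p = 0.346) and Ndufaf8 at -0.18 (adjusted p = 0.356).

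Complex II is at once the succinate dehydrogenase of the citric acid cycle and an entry point for electrons. None of its 4 genes was called. Sdha, the flavoprotein subunit, was 7.33, 6.94 and 7.17 in controls and 7.13, 7.10 and 7.20 in treated rats. The treated rats lay inside the spread of the controls, and the log2 fold change was -0.0036 with a 95% interval from -0.27 to 0.26 (adjusted p = 0.987). Sdhb, the iron-sulphur subunit, was at 0.041 (adjusted p = 0.703), and the membrane anchors Sdhc and Sdhd were at 0.13 and -0.076 (adjusted p = 0.237 and 0.444). Sdhc alone among the 4 had groups that did not overlap, with treated rats higher. Of all genes tested, 32.8% did not overlap, 14.1% on the higher side.

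Complex III passes electrons from ubiquinol to cytochrome c. Of its 8 genes tested, 0 passed the test in limma and 1 was under an unadjusted p of 0.05. That gene was Uqcrq, a small subunit near the haem protein, which read -0.46, -0.49 and -0.58 in controls and 0.053, -0.10 and -0.25 in treated rats. Every treated value exceeded every control value (log2 fold change 0.41, SE 0.090, adjusted p = 0.0626), and the only other Uqcrq probe was not well above background on any array. On their main probes the other 7 complex III genes all had lower treated means. They ran from Uqcr11 at -0.12 (adjusted p = 0.306) and Uqcr10 at -0.098 (adjusted p = 0.458) to the Rieske protein gene Uqcrfs1 at -0.031. Their median with Uqcrq included was -0.057, and it was 0.024 with quantile scaling and 0.031 with normexp background. Dimmer kept probes of Uqcr11, Uqcrb and Uqcrc1 went as high as 0.0125, 0.078 and 0.020.

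In complex IV, which reduces oxygen to water, 3 of the 16 genes tested rose. Cox7c encodes a small membrane-spanning subunit found in all tissues. Its log2 level was 2.47, 2.30 and 2.44 in controls and 3.27, 3.35 and 3.44 in treated rats. The treated rats were well clear of the controls, and the log2 fold change of 0.95 (SE 0.076, limma adjusted p = 0.0140) corresponds to a 1.94-fold higher signal on the single Cox7c probe.

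Cox4i2 encodes the lung-enriched, hypoxia-responsive form of subunit 4, and stood at 1.89, 1.78 and 1.86 in controls and 2.59, 2.55 and 2.71 in treated rats. The groups were separate, and Cox4i2 was 1.71-fold higher (log2 fold change 0.78, SE 0.068, limma adjusted p = 0.0150). A second Cox4i2 probe also showed no overlap, with a smaller difference of 0.25. Cox6b2, the testis form of subunit 6b, was 3.12, 2.88 and 3.01 in controls and 3.56, 3.55 and 3.61 in treated rats. Its groups were separate as well, at 1.48-fold higher (log2 fold change 0.57, SE 0.075, limma adjusted p = 0.0280). A dimmer Cox6b2 probe gave -0.15 with overlapping groups.

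These calls lie near the threshold. With each of the 6 rats left out in turn, Cox7c stayed between 0.90 and 0.99 and was called without control 2 and without treated rat 1, but not without any of the other 4 (adjusted p from 0.0449 to 0.0707). Cox4i2 (0.73 to 0.81, adjusted p from 0.0503 to 0.0697), Cox6b2 (0.51 to 0.63, adjusted p from 0.0524 to 0.0932) and Ndufv2 (-0.30 to -0.27, adjusted p from 0.102 to 0.132) were called in 0 of those 6 limma fits, in which 9 to 23 members had an unadjusted p under 0.05.

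**Figure D2:**
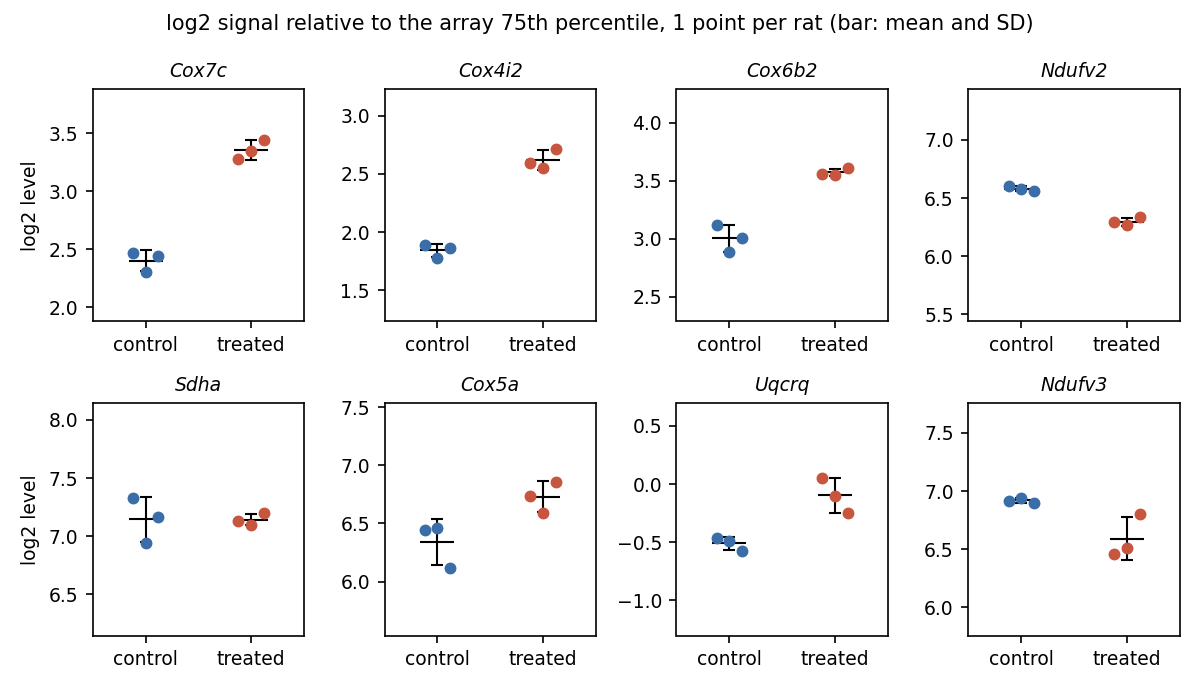
Log2 level relative to the array's 75th percentile in each rat, with the group mean and SD, for the called members and for Sdha, Cox5a, Uqcrq and Ndufv3, with each panel centred on its own gene. Controls and treated rats are separate in every panel except that of Sdha, and control 3 lies low for Cox5a and treated rat 3 high for Ndufv3.

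Several complex IV subunits come in a form found in most tissues and a form restricted to a few. For 4 such pairs with both partners tested, the isoform's difference was set against that of its partner. Cox4i1, the common form of subunit 4, was 7.97, 7.85 and 7.87 in controls and 7.67, 7.73 and 7.76 in treated rats, a log2 fold change of -0.18 (adjusted p = 0.147). Cox4i2 thus exceeded Cox4i1 in its change by 0.95. The muscle and heart form Cox6a2 had a log2 fold change of 0.23 on its main probe (adjusted p = 0.110). Dimmer Cox6a2 probes gave -0.061 and -0.0007, both with overlapping groups. The partner Cox6a1 was at -0.10 (adjusted p = 0.324), a gap of 0.33 from the main Cox6a2 probe. Cox6b2 against Cox6b1, which was at -0.25 (adjusted p = 0.0975) on its main probe and at -0.25 to 0.26 over 3 probes, gave a gap of 0.82. In each of these 3 pairs, read on the main probes, the 3 treated differences lay above the 3 control differences. The exact two-sided permutation p was 0.1 in each, the smallest that 3 against 3 animals allow.

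The fourth pair went the other way and was uneven. Cox8b, the heart and muscle form of subunit 8, was -0.97, -0.01 and -0.82 in controls and -1.01, -1.04 and -1.39 in treated rats. Control 2 was far above the others. The log2 fold change was -0.55 (SE 0.27, adjusted p = 0.275), and -0.25 without control 2, while the partner Cox8a was at -0.035 (adjusted p = 0.746). The gap of -0.51 had overlapping groups (exact two-sided permutation p = 0.3). Control 2 also had the highest level of the sperm protamine Prm1, at 0.17 against -3.98 and -2.49 in the other controls and -3.81 to -3.21 in treated rats, and its Cox8c probes were the brightest of the 6 arrays. Of the 6 sperm and testis markers only 2, Prm1 and Prm2, were tested, and Akap4 was not well above background on any array. Summed over Prm1 and Prm2, the log2 level was 0.36 in control 2 and -3.04 and -1.99 in the other controls. In treated rats this sum was -2.90 to -2.60. The part of this in the Cox8b values was not tested.

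Levels of striated muscle markers stand beside the muscle forms. Of 8 such markers 7 were tested and 2 rose, Acta1 (2.22, limma adjusted p = 0.039) and Mb (0.76, adjusted p = 0.024). Of the 5 that did not pass, Ckm had a log2 fold change of 0.45 and 4 were below 0, Actn3 at -1.02, Tnnt3 at -0.36, Myh4 at -0.14 and Des at -0.029, so the median of the 7 was -0.029. Acta1 was well above background on 1 control array and on all 3 treated arrays. The summed log2 level of the 7 tested was -0.13 to -0.01 in controls and 0.20 to 0.35 in treated rats. For red blood cell markers, of which 5 of 6 had a probe and none was called in limma although all 5 had an unadjusted p under 0.05, the summed level was 8.76 to 9.15 in controls and 9.38 to 9.999 in treated rats. Their part in the Cox4i2, Cox6a2, Cox6b2 and Cox7c values was not tested.

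**Figure D3:**
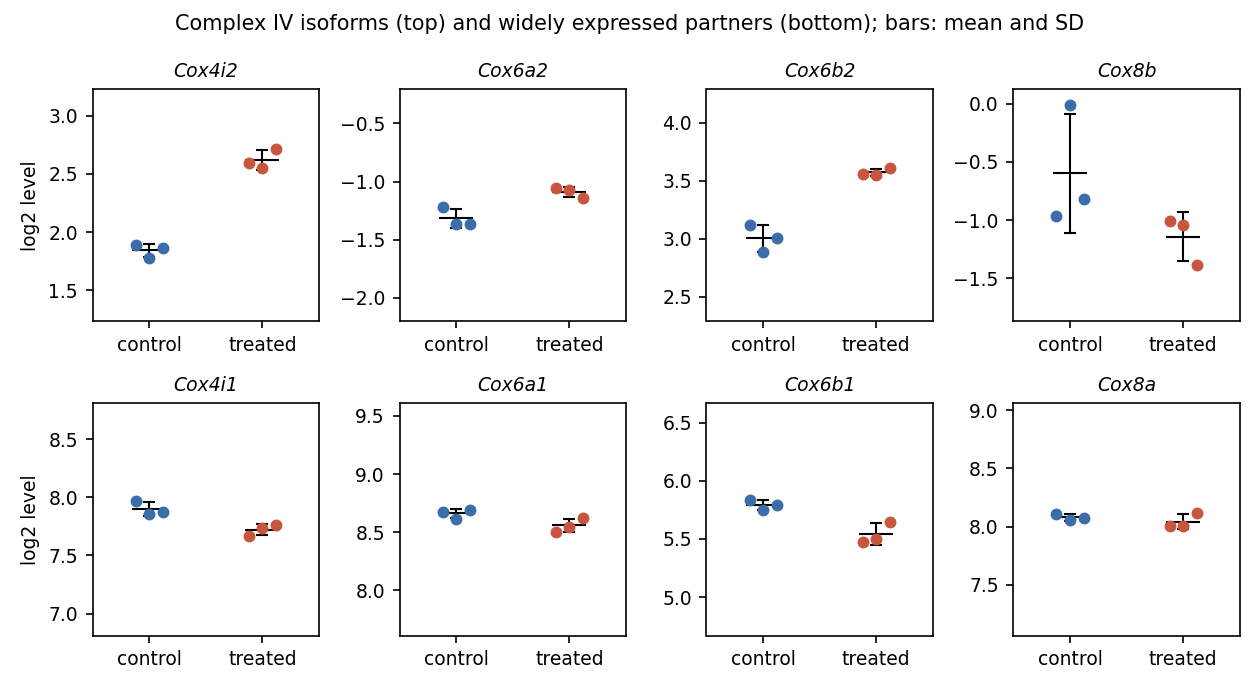
Log2 level in each rat for 4 tissue-restricted complex IV isoforms (upper row) and their widely expressed partners (lower row), with mean and SD. Each panel spans the same number of log2 units but is centred on its own gene. The treated mean is higher for Cox4i2, Cox6a2 and Cox6b2 and lower for Cox4i1, Cox6a1 and Cox6b1, and control 2 stands alone for Cox8b.

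The remaining complex IV genes did not pass the test. Cox5a, which forms the matrix side of the complex, was 6.45, 6.46 and 6.12 in controls and 6.74, 6.59 and 6.86 in treated rats. All treated values were higher, although control 3 was well below the other controls (log2 fold change 0.39, SE 0.12, adjusted p = 0.130), and the second Cox5a probe gave 0.35. Cox7a2, Cox7b and Ndufa4 were at 0.0050, -0.12 and 0.025 (adjusted p = 0.972, 0.275 and 0.838). The 12 genes outside the tissue-restricted forms had a median of -0.069. The median of all 16 was -0.029, and 0.0070 with quantile scaling.

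Cox6c, a small membrane-spanning subunit, is singled out after its values were seen because a pseudogene copy behaved differently. Its own log2 fold change was -0.18 on the main probe (adjusted p = 0.0996), while another Cox6c probe gave 0.021 with overlapping groups. Both probes of Cox6c-ps1 had higher treated values, with differences of 0.64 and 1.13. RefSeq lists 108 pseudogenes with symbols of these families, and 1 of them has a probe of its own here, so signal from near-identical copies cannot be separated from that of the members.

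ATP synthase turns the proton gradient into ATP through its rotating membrane ring and catalytic head. None of the 16 genes tested was called in limma, while 2 had an unadjusted p below 0.05, both lower. The treated mean was lower for 12, and 6 lay wholly below the controls, against 56.5% and 18.7% of all genes tested. At levels of 6 to 8 those shares over all genes were 74.2% and 39.9%. Atp5me, subunit e at the dimer interface, was 8.44, 8.36 and 8.43 in controls and 8.14, 8.10 and 8.29 in treated rats. The groups did not overlap (log2 fold change -0.23, SE 0.070, adjusted p = 0.117). Atp5mc2, one of several genes for the same ring subunit, was at -0.18 (adjusted p = 0.138) with no overlap on any of its 3 probes, and Atp5mk at -0.13 (adjusted p = 0.255). The catalytic subunit genes Atp5f1a and Atp5f1b were at -0.14 and 0.058. Atp5if1, which inhibits the enzyme when the gradient collapses, had the highest value of the 16, at 0.077.

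The downward differences were not even across the treated rats. Relative to the control mean, the median member was -0.11 in treated rat 1, with 67 of 81 members lower, and -0.082 in treated rat 2, with 56 lower. In treated rat 3 it was 0.0016, with 40 lower. The same medians over all genes tested were -0.033, -0.025 and -0.020. For the complex I accessory genes they were -0.17, -0.11 and -0.019, and for ATP synthase -0.12, -0.074 and 0.028, with 16, 12 and 7 of 16 genes lower. Members of a complex in 1 rat share that rat's RNA and array and are not replicates.

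**Figure D4:**
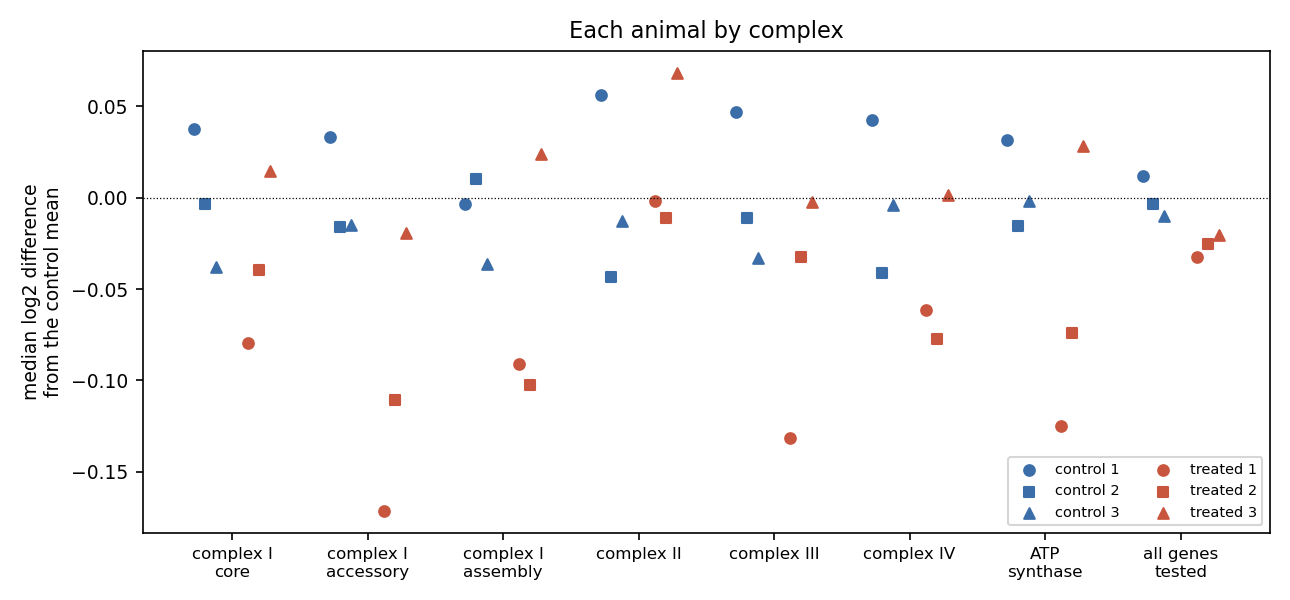
Median log2 difference from the control mean in each rat, over the tested genes of each complex and over all genes tested. Treated rats 1 and 2 lie lower than treated rat 3 in each part of complex I and in ATP synthase.

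Many subunit genes gave bright probes, and with the main scaling the median difference of bright probes of all kinds was below 0. Between levels of 6 and 8, the median log2 fold change was -0.11 for the 318 genes tested and -0.092 for the 41 members among them, with 74.2% of the genes and 32 of the members lower. In that range 39.9% of genes and 18 of the 41 members lay wholly below the controls. Between 4 and 6 the median was -0.091 for all 964 genes and -0.024 for 21 members. Below 0, where 5821 genes lay, the median was 0.019, and the 4 members there had a median of 0.14.

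**Figure D5:**
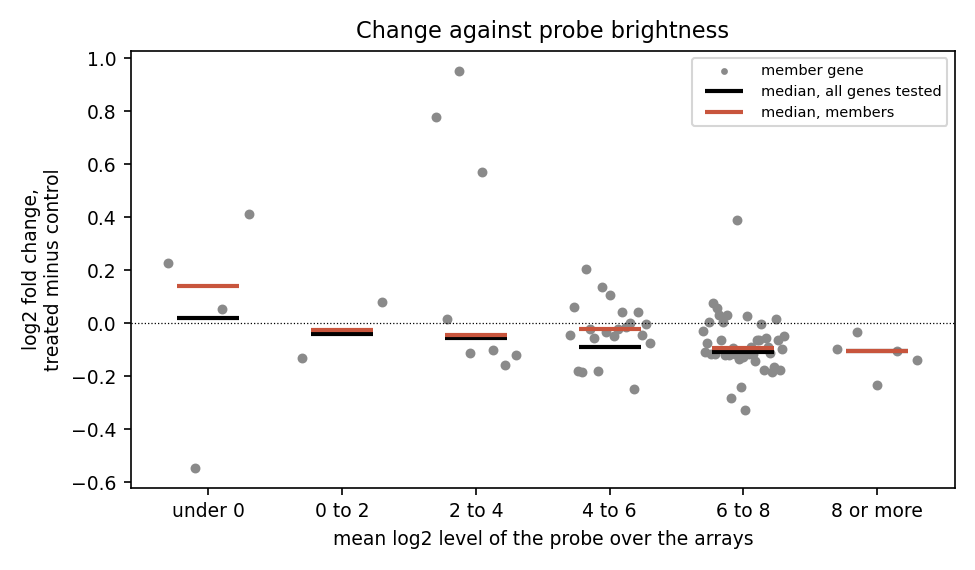
Log2 fold change of each member against the mean log2 level of its probe, in bins of level, with the median over members and over all genes tested in each bin. The median over all genes goes from 0.019 under a level of 0 to -0.11 between 6 and 8, and the members' median there is -0.092.

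Genes that work with the subunits were followed in 10 lists chosen by function, and 0 of their genes was called in limma. Among all genes tested, 4.38% were called. At an unadjusted p below 0.05, 11.8% of all genes were higher and 13.2% lower, and their median log2 fold change was -0.030. The median log2 fold change of the 14 tested complex IV assembly genes was -0.058, and 1 higher and 4 lower genes among them had an unadjusted p below 0.05. The 14 citric acid cycle genes had a median of -0.038, with 0 higher and 1 lower. The 67 mitochondrial ribosome genes had a median of -0.035, with 2 higher and 11 lower. Electron carrier and ubiquinone synthesis genes numbered 13, with a median of -0.081 and 0 higher and 2 lower. Cytochrome c itself, Cycs, was at 0.024 (adjusted p = 0.878). Among 12 regulators of mitochondrial biogenesis the median was -0.043, with 0 higher and 2 lower. Nrf1, a transcription factor of many subunit genes, was at -0.31 (adjusted p = 0.130), and Gabpa, an ETS factor, at -0.16 (adjusted p = 0.120). The coactivator Ppargc1a, the nuclear receptor Esrra and the mitochondrial DNA factor Tfam were at 0.015, 0.0087 and 0.11 (adjusted p = 0.923, 0.941 and 0.366). The smaller lists, for assembly of complexes I, II and III and of ATP synthase and for carriers and porins, held 2 to 8 tested genes each and had medians between -0.18 and -0.035.

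Promoters were read because these genes are known to share binding sites for a few factors. The RefSeq table of build GRCr8, with 250 bases before and 50 after each gene's start, held 73 of the 82 members and 27457 genes in all. Short motifs were searched on both strands, and a match describes letters only. The NRF1 motif GCGCATGC was in 11 members, 15.1%, against 2.77% of all promoters. The ETS motif CCGGAAG was in 22 members, 30.1% against 9.63%, and the YY1 motif AAGATGGC in 14 members, 19.2% against 3.62%. At least 1 of these 3 was in 35 members, 48.0%, against 14.7% of all promoters. The antioxidant response motif TGACNNNGC was in 9 members, 12.3% against 13.1%, the CRE motif TGACGTCA in 4, 5.48% against 2.00%, the ERR motif TCAAGGTCA in 1, 1.37% against 0.44%, and the SP motif GGGCGG in 31, 42.5% against 36%. No 2 matches of different motifs shared a base in the members.

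Promoters are printed for the called members found in the table, for Cox4i1 as the partner of Cox4i2, and for the 2 members with all 3 of the NRF1, ETS and YY1 motifs, 5′ to 3′ on the gene's strand with motif matches in capitals. They lie at chr2:18579121-18579420 (minus strand, Cox7c), chr1:78122621-78122920 (plus, Cox6b2), chr9:113157471-113157770 (minus, Ndufv2), chr19:65630133-65630432 (plus, Cox4i1), chr14:1464610-1464909 (plus, Atp5me) and chr7:115750268-115750567 (minus, Ndufa6). None of the 7 motifs was found in the windows of Cox7c, Cox6b2 and Ndufv2.
Cox7c: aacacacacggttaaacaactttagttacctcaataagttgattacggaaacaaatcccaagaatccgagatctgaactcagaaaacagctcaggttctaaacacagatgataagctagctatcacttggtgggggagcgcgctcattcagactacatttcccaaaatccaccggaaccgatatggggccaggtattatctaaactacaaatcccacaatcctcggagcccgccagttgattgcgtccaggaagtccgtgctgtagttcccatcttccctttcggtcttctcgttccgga
Cox6b2: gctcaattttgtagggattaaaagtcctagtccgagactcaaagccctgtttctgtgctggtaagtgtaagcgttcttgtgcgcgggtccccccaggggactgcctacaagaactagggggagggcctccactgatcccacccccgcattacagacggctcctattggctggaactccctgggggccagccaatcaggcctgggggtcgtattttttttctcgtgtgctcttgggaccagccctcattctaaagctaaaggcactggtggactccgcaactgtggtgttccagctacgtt
Ndufv2: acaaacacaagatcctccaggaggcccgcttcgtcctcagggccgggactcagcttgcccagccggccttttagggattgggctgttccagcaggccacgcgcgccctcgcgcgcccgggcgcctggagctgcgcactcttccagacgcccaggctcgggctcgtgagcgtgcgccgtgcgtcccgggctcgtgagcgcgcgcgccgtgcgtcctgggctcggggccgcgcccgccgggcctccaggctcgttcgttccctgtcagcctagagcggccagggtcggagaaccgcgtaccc
Cox4i1: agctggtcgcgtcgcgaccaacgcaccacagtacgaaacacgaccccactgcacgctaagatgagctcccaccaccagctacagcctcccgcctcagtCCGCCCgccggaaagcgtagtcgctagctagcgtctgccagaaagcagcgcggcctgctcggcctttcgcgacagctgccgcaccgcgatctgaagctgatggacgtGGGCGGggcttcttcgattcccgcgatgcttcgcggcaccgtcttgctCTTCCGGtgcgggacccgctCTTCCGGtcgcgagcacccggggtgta
Atp5me: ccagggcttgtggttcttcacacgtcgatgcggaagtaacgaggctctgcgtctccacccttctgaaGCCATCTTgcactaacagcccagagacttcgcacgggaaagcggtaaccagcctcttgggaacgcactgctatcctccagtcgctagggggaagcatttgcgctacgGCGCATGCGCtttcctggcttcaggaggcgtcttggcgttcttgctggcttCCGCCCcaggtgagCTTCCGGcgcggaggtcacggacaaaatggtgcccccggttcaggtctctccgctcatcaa
Ndufa6: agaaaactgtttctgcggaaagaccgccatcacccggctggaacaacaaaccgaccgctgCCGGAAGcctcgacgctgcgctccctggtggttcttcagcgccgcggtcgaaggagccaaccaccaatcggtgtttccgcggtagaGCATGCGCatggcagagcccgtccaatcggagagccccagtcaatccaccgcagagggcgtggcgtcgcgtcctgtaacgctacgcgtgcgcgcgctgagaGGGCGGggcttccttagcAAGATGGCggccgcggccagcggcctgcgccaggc
Cox4i1 carried 2 ETS matches just after its start and 2 SP matches. In Atp5me, NRF1 matches overlap on both strands at positions -76 and -74 relative to the start, the ETS match begins at -11 and the YY1 match at -183. In Ndufa6 the YY1 match begins at 16, inside the transcript. Atp5me had a log2 fold change of -0.23 and Ndufa6 one of -0.063, and neither passed the test.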

How the data were processed

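Total RNA from 6 renal cortices was hybridised to 1-colour arrays, per the labels. The deposited Cy3 intensity is, per the file headers, background-subtracted and detrended by Agilent Feature Extraction 10.7.1.1 (10.7 in the submitters' processing notes). The deposited value table is a linear ratio of that signal to the array's 75th percentile (ratio to scanner values 0.998). Intensities were turned here into log2 minus each array's 75th percentile over 61537 non-control probes. Outlier spots, 1 to 3 per array, were missing, and none was saturated. Accessions named 28206 probes of 15645 genes through RefSeq GRCr8, and 33331 probes stayed unnamed. The design build is rn4, so coordinates printed are those of GRCr8's own promoters.

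A probe was kept if all arrays of 1 group or the other showed it well above background, and the brightest represented its gene. Of 42 members with over 1 kept probe, 15 had kept probes of opposite sign. The 12130 genes were compared with limma 3.58.1 (R 4.3.3, lmFit and eBayes, prior degrees of freedom 1.77), adjusted by Benjamini-Hochberg at 0.05. The number of arrays, 3 per group, limits the precision. The script was tested on simulated data.

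Members and lists were chosen with earlier results of these data known. Members were named by rule: every called one, the 3 smallest p per complex, all of complex II, the 5 largest changes each way, tissue-restricted isoforms with their partners, members whose probes have opposite signs and differ by over 0.5, called list genes and 6 stated regulators and carriers. Exceptions are said to be so, and 1 member is counted but not reported by name. Alternatives were quantile and median scaling, normexp with offset 50 on the median spot signal (the files used here hold no mean spot signal), the deposited table, no filter, a strict filter, averaging a gene's probes, a trend in the prior, the replicate number as a block and each array left out. A slide block could not be fitted, because each slide holds 1 group.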

Additional observations from a re-analysis of the deposited data

How the results depend on the processing

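Cox7c and Cox4i2 stayed called with quantile or median scaling, normexp, the deposited table, either filter, a trend in the prior and the mean of probes. The mean of probes also called Ndufc2 higher. Cox6b2 lost its call with no filter (adjusted p = 0.0621) and with the mean of probes (0.427). Ndufv2 lost its call with quantile scaling (0.0639), median scaling (0.0569), no filter (0.0892) and the mean of probes (0.0553). Members called lower were then 0 under those 4 settings and 4 with normexp, which called 5 higher. Unadjusted p was under 0.05 for 16, 15, 15 and 16 members under those 4 settings of limma. Genes called higher numbered 37 with no filter and 229 with the mean of probes. Genes called lower numbered 512 with normexp, 7 with no filter, 395 with the trend and 63 with the mean of probes. The share of calls on the higher side was 69.7% in the main analysis, 47.5% with normexp, 84.1% with no filter and 52.8% with the trend. The cause of these moves was not tested.

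Replicate numbers did not pair the animals (correlations of deviations -0.118, -0.114 and 0.089), so they share only a number. With the replicate block, 0 genes and 0 members were called in limma in either direction, with 2547 genes and 11 members at an unadjusted p under 0.05. With fewer animals, each left out in turn, genes called higher ranged from 0 to 48 and lower from 0 to 6, members higher from 0 to 1 and members lower from 0 to 0, with 2437 to 2647 genes under an unadjusted p of 0.05.

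The median log2 fold change of all genes was -0.021 with quantile scaling, -0.064 with median scaling, -0.053 with no filter, -0.039 with the strict filter, -0.025 with the mean of probes and from -0.035 to -0.026 with an animal left out. With quantile scaling the median was -0.011 over members, 0.056 for complex I core, -0.025 for accessory genes, 0.097 for complex II, 0.024 for complex III and 0.0070 for complex IV. Median scaling gave -0.091 for complex III and -0.063 for complex IV, normexp gave 0.031 for complex III, and the mean of probes gave -0.11 for ATP synthase. With an animal left out the median ranged from -0.10 to -0.043 over members, from -0.060 to 0.012 for complex I core, from -0.14 to -0.080 for accessory genes, from -0.070 to -0.034 for assembly factors, from -0.024 to 0.082 for complex II, from -0.075 to -0.028 for complex III, from -0.060 to -0.0051 for complex IV and from -0.10 to -0.031 for ATP synthase. With 3 arrays per group, a member whose 95% interval spans 0 has no detectable difference here. The intervals are not adjusted for the number of genes, so an interval that excludes 0 is not by itself a call. Cox8c was limited by signal over background.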
